A study of Mus musculus with 4 samples.

Results

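The Nodal signalling genes described here are 9 of the 20284 mouse genes that the arrays name through a RefSeq transcript. They are the ligand Nodal, the convertases Furin and Pcsk6, the inhibitors Lefty1 and Lefty2, the co-receptor Tdgf1, the receptor Acvr2b, the inhibitory Smad gene Smad7 and the nuclear partner Foxh1. All non-control features whose RefSeq transcript belongs to one of these genes were taken, which gave 11 features, 3 of them for Tdgf1 and 1 for each of the other 8 genes. Their levels were measured in 4 mouse ES cell lines, with 1 array for each line. Parental ES cells are the EB3 line. Nup98-HoxA9 ES clones #1 and #9 are independent stable clones of EB3 that express FLAG-tagged human Nup98-HoxA9, a leukemogenic fusion of the FG-repeat part of the nucleoporin Nup98 to the homeodomain part of HoxA9. The HoxA9-Ct ES clone expresses the HoxA9 part alone. All lines were grown on gelatin with serum and LIF, without feeder cells. The constructs were integrated with a Tol2 transposon vector and selected with hygromycin B, so each transgenic line is 1 clone that passed through selection, which parental ES cells did not. The effect of the transgene and that of cloning cannot be told apart within a line. The study asked how the fusion changes gene expression in ES cells relative to the parental cells and to the HoxA9 part alone.

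Nodal is a secreted ligand of the TGF-beta family. Furin and Pcsk6 (PACE4) cleave its precursor. The mature ligand binds type I and type II activin receptors, such as the type II receptor Acvr2b, together with the co-receptor Tdgf1 (Cripto), and the receptors phosphorylate Smad2 and Smad3. With Smad4 and partners such as Foxh1, these Smads bind DNA and activate target genes, among them Nodal itself and its secreted antagonists Lefty1 and Lefty2. Smad7 is a feedback inhibitor that acts at the receptors. In the embryo the pathway maintains the epiblast and patterns the primitive streak and the left-right axis, and ES cells produce and respond to Nodal in culture.

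The promoter sequences below are shown because Foxh1 and Smad proteins are the DNA-binding end of the pathway. They are the 250 bases before the RefSeq start on GRCm38.p6, written 5′ to 3′ on the strand of the gene. Windows were read at 6 RefSeq starts of 5 of the 9 members, namely Nodal, Furin (a pair of starts), Pcsk6, Tdgf1 and Acvr2b. Smad7 was left out of this reading. Capitals mark matches on either strand to a loosened Foxh1 element, TGTNNATT or its complement AATNNACA, and to the Smad box, CAGAC or GTCTG. The central letters (NN) of the Foxh1 element were left free, so a match need not be a Foxh1 site. Nodal, the ligand, is shown first, followed by Tdgf1, the one member of the 5 with a match to the loosened Foxh1 element in this window.
Nodal, chr10:61417722-61417971, + strand: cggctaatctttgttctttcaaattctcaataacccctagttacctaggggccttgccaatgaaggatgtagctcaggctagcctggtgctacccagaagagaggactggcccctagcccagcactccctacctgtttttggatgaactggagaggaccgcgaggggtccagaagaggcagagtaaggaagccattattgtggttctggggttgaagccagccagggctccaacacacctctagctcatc
Tdgf1, chr9:110946159-110946408, - strand: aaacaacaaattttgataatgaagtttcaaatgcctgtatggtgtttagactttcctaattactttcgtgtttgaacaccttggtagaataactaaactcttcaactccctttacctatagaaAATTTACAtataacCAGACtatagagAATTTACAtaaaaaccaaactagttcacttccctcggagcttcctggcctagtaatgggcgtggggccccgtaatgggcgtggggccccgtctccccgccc
The Tdgf1 window held 2 matches to the loosened Foxh1 element, with first bases 127 and 101 bases before the start. Both read AATTTACA, and 1 Smad box lies between them at 113 bases. None of these matches overlap. A Smad box also occurred in the Acvr2b window (1) and in both Furin windows (2 and 1), and neither motif occurred in the Nodal and Pcsk6 windows. Of 32851 mouse promoter windows of this length, 10.9% held a match to the loosened Foxh1 element and 42.2% a Smad box. A match describes the letters of the window only, and Foxh1 binding was not measured.

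The signal of each feature is given as its log2 distance from the 75th percentile of that array, called the level below. All 4 arrays come from a single slide and scan, and 49.9% to 53.0% of their spots were well above background. All 9 members were well above background in all 4 lines. Each member feature has a single spot, for which the scanner software estimated an error of at most 10.2% of the signal. At the median error of the members, this gives 0.20 on the log2 scale for a ratio of a pair of spots. Over the 241 features with 10 spots that were well above background everywhere, the median SD between spots was 0.06 to 0.07 (log2). Both are errors of the spot within an array. The spread between separate samples is known for the Nup98-HoxA9 clones alone, so a ratio of a single line to parental ES has no replicate check. In every comparison the limma values below assume that parental ES and HoxA9-Ct ES vary like the clones. The single clones were not tested against parental ES. All 8 ES cell markers examined, among them Pou5f1, Sox2 and Esrrb, were well above background in all lines, which fits the label of the cells. The arrays measure bulk RNA, so fewer expressing cells and less RNA per cell cannot be told apart.

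**Figure D1:**
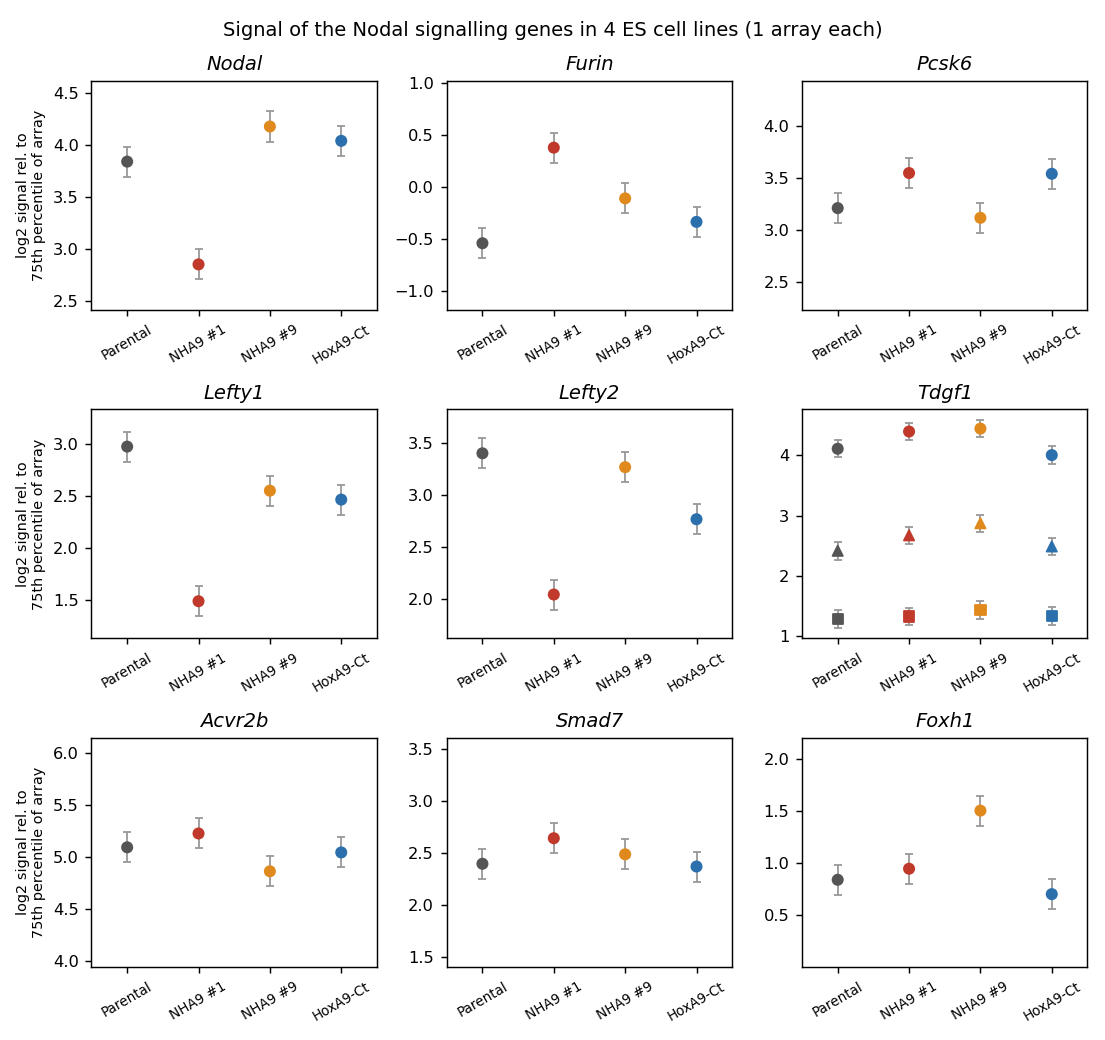
Level of each Nodal signalling gene (y axis, log2 signal relative to the 75th percentile of the array; each panel has its own range) in parental ES, Nup98-HoxA9 (NHA9) clones #1 and #9 and HoxA9-Ct ES, 1 array each. Bars are the error estimate of the spot, and the 3 marker shapes of Tdgf1 are its 3 features. Clone #1 is the lowest of the 4 lines for Nodal, Lefty1 and Lefty2.

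The ligand and its antagonists differed most between lines. Nodal, Lefty1 and Lefty2 were all lowest in Nup98-HoxA9 clone #1, whereas clone #9 lay near parental ES for Lefty2 and above it for Nodal. Lefty1 was 2.80-fold and Lefty2 2.56-fold lower in clone #1 than in parental ES, and Nodal was 1.98-fold lower. The same 3 genes were 2.09- to 2.51-fold higher in clone #9 than in clone #1.

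Nodal had a level of 3.84 on the parental array, 2.86 on that of clone #1, 4.18 on that of clone #9 and 4.04 on that of HoxA9-Ct ES, from processed signals of 3292, 1609, 4592 and 3449. Clone #1 thus lay apart below the other 3 lines, with a gap of 0.99 to its nearest neighbour, parental ES. The other 3 lines followed each other within gaps of 0.14 and 0.20, no larger than the error of a ratio of a pair of spots. Averaged over the clones, the log2 ratio to parental ES was -0.33 ± 0.94 (SD, n = 2 clones), since clone #1 was lower (-0.99) and clone #9 higher (0.34). The difference was smaller than the spread between the clones, and limma gave an SE of 0.56, an unadjusted p of 0.559 and an adjusted p of 1.00 over 55562 features.

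Lefty1, which blocks Nodal and its co-receptor, had a level of 2.97 on the parental array, 1.49 on that of clone #1, 2.55 on that of clone #9 and 2.46 on that of HoxA9-Ct ES. All 3 transgenic lines lay below parental ES, clone #1 furthest at a log2 ratio of -1.49, then HoxA9-Ct ES at -0.51 and clone #9 at -0.42. Clone #9 and HoxA9-Ct ES lay 0.09 apart, less than the spot error. The mean of the clones against parental ES was -0.96 ± 0.75 (SD, n = 2 clones; limma SE 0.56, unadjusted p 0.0859, adjusted p 1.00). Lefty1 passed the threshold under 2 alternatives, with an adjusted p of 0.0159 after normexp background correction and of 0.00755 with the trend and robust options of eBayes on, where limma called 1.41% and 2.24% of features. The SE of Lefty1 was 0.229 and 0.243 in these fits, well below the SD of 0.75 between the clones. Lefty1 passed under none of the other alternatives. Its SE was 0.704 with quantile normalization and 0.559 with a filter on dim probes.

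Lefty2, the paralog of Lefty1 that acts in the same way, had a level of 3.40 on the parental array, 2.04 on that of clone #1, 3.27 on that of clone #9 and 2.77 on that of HoxA9-Ct ES. Its order of lines was that of Lefty1. Clone #9 and parental ES were 0.13 apart, within the spot error, and HoxA9-Ct ES had a log2 ratio to parental ES of -0.63. The mean of the clones was -0.75 ± 0.87 (SD, n = 2 clones; limma SE 0.56, unadjusted p 0.180, adjusted p 1.00). Lefty1 and Lefty2 are close paralogs on the same chromosome (chromosome 1), and the share of signal that either feature takes from the other transcript was not tested.

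The genes that process the ligand showed smaller differences. Furin had a level of -0.54 on the parental array, 0.38 on that of clone #1, -0.11 on that of clone #9 and -0.33 on that of HoxA9-Ct ES. It was the one member above parental ES in all 3 transgenic lines, at log2 ratios of 0.92 (clone #1), 0.43 (clone #9) and 0.21 (HoxA9-Ct ES). The HoxA9-Ct ratio was about as large as the error of a ratio of a pair of spots. Its mean in the clones was 0.68 ± 0.34 (SD, n = 2 clones; limma SE 0.56, unadjusted p 0.225, adjusted p 1.00). Pcsk6 had a level of 3.21 on the parental array, 3.55 on that of clone #1, 3.12 on that of clone #9 and 3.54 on that of HoxA9-Ct ES. Clone #1 and HoxA9-Ct ES lay 0.01 apart above parental ES, and clone #9 lay 0.09 below it. The Pcsk6 spot lies in row 3 of the 384 spot rows, at the edge of the array, and the effect of this position was not tested.

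At the receptors, Tdgf1 was slightly higher in both Nup98-HoxA9 clones than in parental ES. Its brightest feature had a level of 4.11 on the parental array, 4.39 on that of clone #1, 4.44 on that of clone #9 and 4.0 on that of HoxA9-Ct ES. The clones lay 0.05 apart and averaged 0.31 ± 0.03 (SD, n = 2 clones) above parental ES on the log2 scale (limma SE 0.56, unadjusted p 0.578, adjusted p 1.00). The other 2 features of Tdgf1 gave ratios of 0.26 and 0.04 in clone #1 and of 0.46 and 0.15 in clone #9, in the same direction, and of 0.07 and 0.05 in HoxA9-Ct ES, against -0.10 at the brightest one. The clone ratios of 0.04 and 0.15 come from the same feature and lie within the error of 0.20 for a ratio of a pair of spots. RefSeq also lists Tdgf1 pseudogenes on chromosomes 16 and 17, whose part in these signals was not tested. Acvr2b had a level of 5.10 on the parental array, 5.23 on that of clone #1, 4.87 on that of clone #9 and 5.05 on that of HoxA9-Ct ES, a range of 0.36. Its spot lies in row 366 of the 384 spot rows, near the edge of the array, and the effect of this position was not tested.

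Inside the cell, Smad7 had a level of 2.39 on the parental array, 2.64 on that of clone #1, 2.48 on that of clone #9 and 2.37 on that of HoxA9-Ct ES. Its range of 0.27 was the smallest of the 9 members. Foxh1 had a level of 0.84 on the parental array, 0.94 on that of clone #1, 1.5 on that of clone #9 and 0.70 on that of HoxA9-Ct ES. Clone #9 stood above the other lines, at a log2 ratio to parental ES of 0.67 against 0.11 in clone #1 and -0.14 in HoxA9-Ct ES. Foxh1 lies on chromosome 15, whose 637 features well above background in all lines had a median ratio of 0.40 in clone #9, against -0.09 for the 15660 on other chromosomes. In clone #1 these medians were 0.02 and -0.02. The part of the chromosome in the Foxh1 value was not tested.

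**Figure D2:**
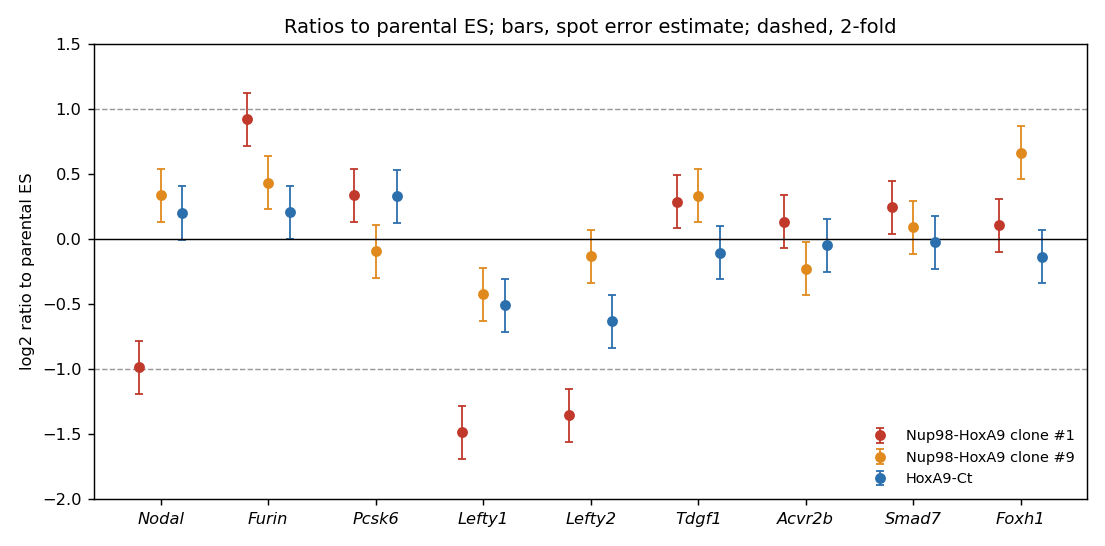
Log2 ratio of each Nodal signalling gene to parental ES (y axis) in Nup98-HoxA9 clone #1, clone #9 and HoxA9-Ct ES, 1 array each. Bars are ± 0.20, the error estimate for a ratio of a pair of spots, and dashed lines mark 2-fold. Lefty1 and Lefty2 in clone #1 lie below the lower dashed line, and no other value lies beyond either line.

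Members were then counted at a fixed threshold of 2-fold. In clone #1, 2 of 9 members (Lefty1 and Lefty2) were more than 2-fold below parental ES, where 1.99% of the 25529 features well above background in all lines were. Nodal lay just short of the threshold. In clone #9, 0 of 9 members differed from parental ES by more than 2-fold in either direction, where 6.4% of features did. For both clones in the same direction the count was 0 of 9, where 1.88% of features passed. In HoxA9-Ct ES it was also 0 of 9, where 1.18% of features passed. Clone #9 exceeded clone #1 by more than 2-fold at 3 of 9 members (Nodal, Lefty1 and Lefty2), where 2.68% of features did. With each array scaled to its median, Lefty1 fell short of the threshold there, at a log2 ratio of 0.97. The comparison of the clones with parental ES and that between the clones share the clone #1 array, so these counts are not separate observations.

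limma called 0 of the 9 members in each of its comparisons at an adjusted p of 0.05, and 0 at an unadjusted p of 0.05. It called 1.41% of 55562 features for Nup98-HoxA9 against parental ES, 0.405% for HoxA9-Ct against parental ES and 1.36% for Nup98-HoxA9 against HoxA9-Ct ES. The lowest unadjusted p of a member was 0.0859 (Lefty1), 0.324 (Lefty2) and 0.345 (Nodal) in these comparisons. The fit rests on 1 residual degree of freedom and gave every feature the same SE. In simulated data of the first comparison it recovered 0 of 50 features changed by a log2 of 1, and 18 of 50 changed by 2. That comparison takes the mean of the clones, on which every member differed from parental ES by less than a log2 of 1. Lefty1 was furthest at -0.96, and Lefty2 stood at -0.75. At these settings no member would be expected to pass, so the count of 0 cannot tell a changed member from an unchanged one. Lefty1 did pass with normexp and with the trend and robust options on, and under none of the other alternatives. The median log2 ratio to parental ES over the members was 0.13 (clone #1), 0.09 (clone #9) and -0.05 (HoxA9-Ct ES), against -0.03, -0.12 and 0.00 over the 25529 features.

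**Figure D3:**
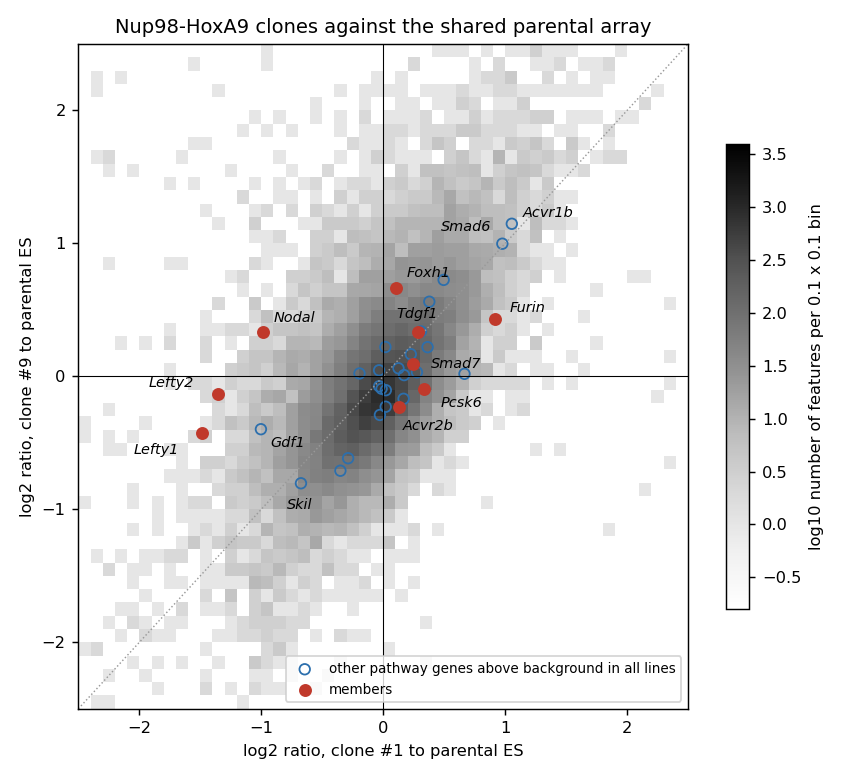
Log2 ratio to parental ES in clone #1 (x axis) and clone #9 (y axis). Grey shows the number of features per bin on a log scale, red points the 9 Nodal signalling genes and blue circles the other pathway genes well above background in all lines. Both axes share the parental array, so points along the dotted diagonal are not a sign of agreement. Nodal, Lefty1 and Lefty2 lie left of and above the diagonal.

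**Figure D4:**
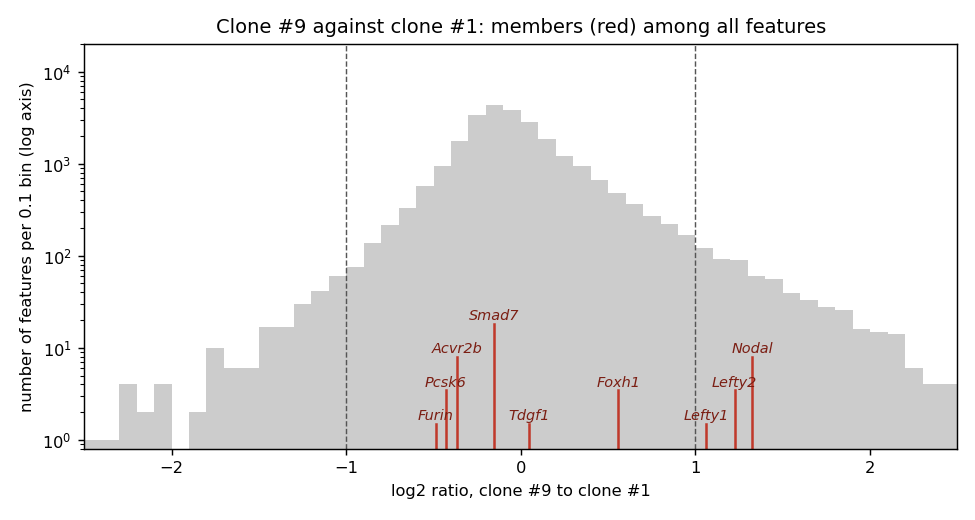
Number of features (y axis, log scale) by log2 ratio of clone #9 to clone #1 (x axis, bins of 0.1), with the 9 Nodal signalling genes as red lines whose height has no meaning and dashed lines at 2-fold. Nodal (1.33), Lefty2 (1.22) and Lefty1 (1.06) lie beyond the right dashed line, and the other 6 members lie between the dashed lines.

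The plot of the ratio between the clones shows the 3 genes apart from the other 6 members, which lay between -0.49 (Furin) and 0.56 (Foxh1). In HoxA9-Ct ES, Nodal was 2.28-fold, Lefty1 1.97-fold and Lefty2 1.65-fold higher than in clone #1. Relative to clone #9, the HoxA9-Ct levels were within 0.14 for Nodal and 0.09 for Lefty1, while Lefty2 was higher in clone #9 by 0.50 (log2).

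The genes with the nearest pattern over the 4 lines were sought among 12552 genes as those with the smallest root mean square distance between levels centred on their mean. For Nodal these were Anxa8 (0.034), Mapt (0.064), Apod (0.067), Herc4 (0.069) and Slc1a6 (0.071). Lefty2 and Lefty1 ranked 259 and 273 from Nodal. For Lefty1, the member with the widest range over lines (1.49), they were Vash2 (0.084), Rbfox3 (0.11), Syt13 (0.14), R3hdml (0.15) and Lefty2 (0.15), so the paralog ranked 5 of 12552, while Nodal ranked 158. With 4 lines such distances describe these arrays only.

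A list of 32 other genes of the pathway was examined in the same way. Of these, 24 were well above background in all lines and 6 in none, namely the ligand gene Inhba, the convertase Pcsk5, the inhibitor Cer1, the receptor Acvr1c, the streak factor Mixl1 and the pseudoreceptor Bambi. limma called 0 of the 32 in each comparison after adjustment. Of the genes reported singly, Acvr1b passed an unadjusted p of 0.05 for Nup98-HoxA9 against parental ES, none did for HoxA9-Ct against parental ES, and Fst and Smad6 did for Nup98-HoxA9 against HoxA9-Ct ES. The Smads that carry the signal varied little, with log2 ratios to parental ES between -0.29 and 0.17 for Smad2, Smad3 and Smad4 in all 3 transgenic lines.

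Acvr1b, the type I receptor through which Nodal signals, was the 1 gene of the 32 that was more than 2-fold away from parental ES in both clones in the same direction. Among the 30195 features well above background in at least 1 of the 3 lines, 2.76% passed this rule. Its level was -2.40 on the parental array, -1.34 on that of clone #1, -1.25 on that of clone #9 and -2.22 on that of HoxA9-Ct ES. Both clones lay above both other lines, at log2 ratios to parental ES of 1.05 and 1.15 (limma unadjusted p 0.0477). After normexp background correction it was no longer past 2-fold in both. Acvr1b lies on chromosome 15 too, with the medians given for Foxh1, and the part of the chromosome in its value was not tested. Smad6, an inhibitory Smad best known for the BMP branch, stood close to the threshold, with levels of -0.84 on the parental array, 0.14 on that of clone #1, 0.16 on that of clone #9 and -1.44 on that of HoxA9-Ct ES.

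Other ligands and antagonists each stood out in 1 line. Gdf1, a ligand that pairs with Nodal, had a level of 2.73 on the parental array, 1.72 on that of clone #1, 2.33 on that of clone #9 and 2.59 on that of HoxA9-Ct ES. Like Nodal and the Lefty genes it was lowest in clone #1. Its spot lies in row 364, near that of Acvr2b, and its locus is shared with Cers1, so the signal cannot be assigned to Gdf1 alone. No line was well above background at a second feature of Gdf1. Cfc1, a relative of Tdgf1, was also lowest in clone #1 and was not well above background there. Gdf1 (2.004-fold) and Cfc1 (at least 2.06-fold) were the 2 of 32 genes past the 2-fold threshold below parental ES in clone #1, both only just, where 3.02% of the 28730 features well above background in either line were. Fst, which binds activin, had a level of -1.29 on the parental array, -1.01 on that of clone #1, -1.26 on that of clone #9 and -2.32 on that of HoxA9-Ct ES. It was the 1 gene of the 32 more than 2-fold below parental ES in HoxA9-Ct ES, only just (2.04-fold). Of the 25529 features well above background in all lines, 1.18% were past 2-fold there in either direction.

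Skil, a target and repressor of Smad signalling, has an array feature with 10 spots and so a measured spot error. Its level, over the 8 or 9 spots left per array after outliers, was 1.99 ± 0.07 (SD over 9 spots) on the parental array, 1.32 ± 0.09 (9 spots) on that of clone #1, 1.19 ± 0.08 (8 spots) on that of clone #9 and 1.58 ± 0.07 (8 spots) on that of HoxA9-Ct ES. The spots of parental ES overlapped with none of another line. Both clones were below HoxA9-Ct ES, with log2 ratios to parental ES of -0.67 and -0.80 against -0.41. A second feature gave -0.89, -0.57 and -0.35 in the same order of lines, so the order of the clones differed between features. Spots of 1 array are not separate samples, and no test over them was made.

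**Figure D5:**
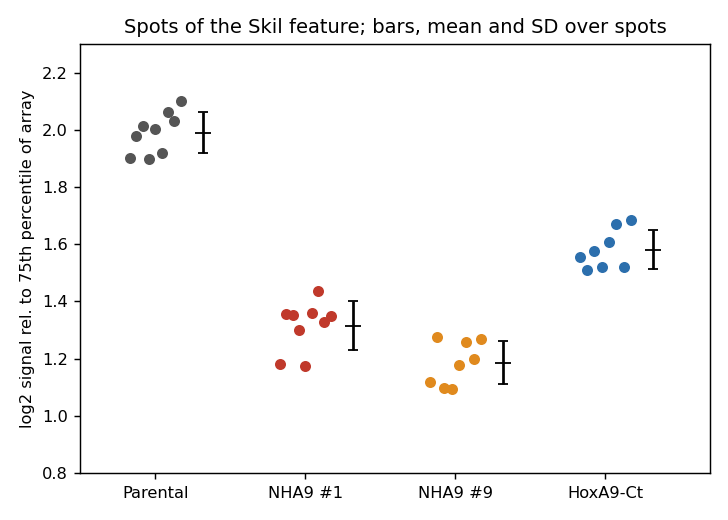
Level of every Skil spot left after outliers (y axis, log2 signal relative to the 75th percentile of the array) in parental ES, Nup98-HoxA9 (NHA9) clones #1 and #9 and HoxA9-Ct ES, 1 array each. Black bars are the mean and SD over 8 or 9 spots of 1 array, not over samples. The parental spots lie above all others.

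Markers of other cell types differed in level between the Nup98-HoxA9 clones and the parental line, with 1 array each. All 7 primitive endoderm markers were higher in both clones than in parental ES. Over the 3 of them well above background in all lines, the median log2 ratios were 1.79 (clone #1) and 1.98 (clone #9). Gata6, a defining factor of that lineage, had a level of -2.0 on the parental array, 0.24 on that of clone #1, 0.53 on that of clone #9 and -3.38 on that of HoxA9-Ct ES. The summed signal of the list was 0.18, 1.96, 2.29 and -0.88 (log2) in the same order of lines, and all 7 markers were higher in clone #9 than in clone #1, by a median of 0.29. All 4 primed epiblast markers were lower in both clones, and Otx2 had a level of 3.84 on the parental array, 2.47 on that of clone #1, 1.34 on that of clone #9 and 4.50 on that of HoxA9-Ct ES. Of 5 trophectoderm markers, 2 were well above background in parental ES, 4 in each clone and 1 in HoxA9-Ct ES. Their summed signal was 2.86, 3.35, 3.14 and 2.40, most of it from Tfap2c alone (2.84, 3.31, 3.02 and 2.35). The clones differed in these markers, as Elf5 was well above background in clone #1 alone and Gata3 in clone #9 alone, and Krt7 was 2.27 (log2) higher in clone #9 than in clone #1. Of 6 markers of the primitive streak and mesoderm, Eomes and Kdr were well above background in all lines, Gsc in both clones alone, and T, Mixl1 and Mesp1 in none. The summed signal of the 5 fibroblast markers was 2.96, 3.26, 4.16 and 3.42, highest in clone #9. Most of that sum was Thy1 alone (2.89, 3.18, 4.06 and 3.36). In clone #9, 4 of the 5 were higher than in parental ES, and 1, Col3a1, was lower. The part of these cell types in the values of the Nodal signalling genes was not tested.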

How the data were processed

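Total RNA was labelled with Cy3 and hybridised to one-colour Agilent SurePrint G3 Mouse GE arrays, 1 per line. The authors extracted the images with Feature Extraction 10.10.1.1 (submitters' processing notes), and the deposited scanner files hold background-subtracted, detrended spot intensity values. The deposited series matrix equals these intensities times 1 constant per array (3.19 to 3.63), and served as an alternative. Control spots and outlier spots were left out. Each log2 signal was set against the 75th percentile of its array (209 to 253) over 59305 spots. RefSeq accessions named 26762 of 55681 probes (GRCm38.p6; the array annotation is mm9, so array positions were not used). A gene was read at its probe of highest mean signal. limma 3.58.1 in R 4.3.3 was fitted to 3 groups (1 residual degree of freedom, prior SD 0.454), with Benjamini-Hochberg adjustment over 55562 probes, and was tested on simulated data. The 4 arrays limit precision. The normexp alternative used the median spot signal, as the scanner files hold no mean signal. Before a threshold of 2-fold was applied, a line not well above background was raised to the lowest signal well above background on its array. It kept its own signal where that was higher. The named genes are all members, the pathway genes past 2-fold or called, the 5 nearest in pattern, and the examples named with them. Results of 1 gene that meets this rule are not reported here. Members, lists and rules were chosen with earlier results of these data known. Python 3.11.15 (numpy 2.4.6, pandas 2.3.3) was used for all tables.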

Additional observations from a re-analysis of the deposited data

How the results depend on the processing

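The log2 ratios of the 9 members between lines, 252 values under 7 alternative settings (normexp, quantile normalization, array median, floor, series matrix, mean over probes and a filter on dim probes), moved by at most 0.15, and 2 of them changed sign, both for Tdgf1 at ratios near 0 (clone #9 against clone #1, 0.05 and -0.04 with the array median; HoxA9-Ct against parental ES, -0.10 and 0.01 with the mean over probes). The ratio of clone #1 to parental ES was -0.99 to -0.92 for Nodal, -1.49 to -1.39 for Lefty1 and -1.36 to -1.26 for Lefty2. The limma count of members for Nup98-HoxA9 against parental ES was 1 in place of 0 with normexp and with trend and robust on, and in both it was Lefty1 (1.41% and 2.24% of all features were called there). For the same comparison, limma called 0 of 55562 features with quantile normalization and 0 of 30517 with the filter on dim probes. With normexp, 0 other pathway genes were past 2-fold in both clones, in place of 1. With the array median, 2 members in place of 3 were past 2-fold between the clones, as Lefty1 lay at 0.97. Without a clone, the count past 2-fold in the clones ranged from 0 to 2 for members (2 without clone #9) and from 2 to 3 for other pathway genes (2 without clone #1, 3 without clone #9). Of the 25529 features well above background in all lines, 3.51% were past 2-fold in clone #1 and 6.4% in clone #9, in either direction. limma without a clone leaves no residual degree of freedom and gave no value. At 1.5-fold, HoxA9-Ct ES had 1 member past the threshold (5.34% of all features), both clones 3 other pathway genes (8.25%) and clone #1 alone 4 members (11.5%). At 3-fold, clone #9 against clone #1 gave 0 members (1.09% of all features), both clones 0 other pathway genes (0.864%) and clone #1 alone 0 members (0.964%). The count in clone #1 alone, and its alternatives, were chosen after seeing the data. The causes of these moves were not tested. No paired analysis was possible because each line has 1 array and the labels match no array of 1 line to that of another.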

Other observations

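Nedd4l, a ubiquitin ligase that restrains Smad signalling, has a second feature that was well above background in the 3 transgenic lines, at levels of -3.68 (clone #1), -3.51 (clone #9) and -3.30 (HoxA9-Ct ES), but not in the parental line. Its brighter feature had levels of 1.58, 1.96, 2.15 and 1.96, in the order parental ES, clone #1, clone #9 and HoxA9-Ct ES. Pmepa1, a feedback inhibitor of the TGF-beta family, was above parental ES in both clones at both of its features, with log2 ratios of 0.50 and 0.68 in clone #1 and of 0.73 and 0.75 in clone #9. Tgif1, a repressor of Smad-activated genes, stayed between 5.98 and 6.16 in all 4 lines. Gdf3, a ligand of the same family, was lowest in clone #9, with levels of 5.11, 4.82, 4.50 and 5.22, and its second feature followed the same order of lines within the clones, at 2.02 and 1.69.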
